A study of Mus musculus with 2 samples.

Results

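Of the 5046 peaks listed on assembled mouse chromosomes for the anti-Usp16 library, 519 (10.3%, exact 95% interval 9.46 to 11.2%) lay at an end of a long noncoding RNA (lncRNA) gene. A peak was chosen by position only: it had to overlap by 1 bp or more the window of 1 kb to either side of an annotated end of a gene that RefSeq classes as lncRNA in GRCm38. The same peak also reached such a window of a protein-coding gene in 310 cases (59.7%, interval 55.4 to 64.0%), called shared here. The remaining 209 peaks (40.3%) reached a lncRNA gene end alone. The whole list held 5079 peaks.

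The study compared chromatin immunoprecipitated with an anti-Usp16 antibody with an IgG immunoprecipitation, 1 library each, to find genes enriched for Usp16. Both came from bone marrow cells positive for ckit and sca1, which the labels call hematopoietic stem and progenitor cells. The donors were Mx1 Cre:Usp16loxp/loxp mice. Their strain, age and number, and any treatment to induce the recombinase, are not given in the labels, so whether the cells still held Usp16 is not known here. Mx1 Cre is driven by an interferon-responsive promoter and is not restricted to blood cells. The identity of the cells could not be checked against marker levels, since a peak list holds no expression values. With 1 library per antibody and no replicate, samples could not be compared by a test, and the intervals given cover counting error only.

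Usp16 removes ubiquitin from histone H2A, a mark that Polycomb complexes place on silent genes. Long noncoding RNAs are transcripts that encode no protein. Many of them start back to back with a protein-coding gene, from a CpG-rich region that fires in both directions, while others have a start of their own, host small nucleolar RNAs (snoRNAs) in their introns or overlap another gene on the opposite strand.

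Start windows under the highest-scoring members are shown first, because they display the kinds of start at which the peaks lay. Each window runs from 250 bases before to 50 after an annotated start and was taken from RefSeq, build GRCm38.p6, read 5′ to 3′ on the gene's own strand. Of the 525 lncRNA genes with a gene-end peak, 412 had such a window. Capitals mark matches, on either strand, to the GC box GGGCGG, the CCAAT box CCAAT, the TATA box TATAAA and the ETS factor motif CCGGAAGT, except in Gm40237. The shared members with the highest scores that could be shown are Gm13830 (chr5:115300870-115301169, plus strand), Gm26802 (chr7:19300744-19301043, minus strand) and, for the peak shared by Gm26721 and the adhesion receptor gene Adgrl1, the window of Adgrl1 (chr8:83899848-83900147, plus strand).
Gm13830: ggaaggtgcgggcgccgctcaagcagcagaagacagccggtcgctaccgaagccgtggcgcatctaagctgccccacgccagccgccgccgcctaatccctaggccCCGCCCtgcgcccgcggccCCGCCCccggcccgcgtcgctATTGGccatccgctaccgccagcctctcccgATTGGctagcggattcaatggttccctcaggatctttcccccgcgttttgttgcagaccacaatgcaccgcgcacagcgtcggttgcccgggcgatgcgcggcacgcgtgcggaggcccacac
Gm26802: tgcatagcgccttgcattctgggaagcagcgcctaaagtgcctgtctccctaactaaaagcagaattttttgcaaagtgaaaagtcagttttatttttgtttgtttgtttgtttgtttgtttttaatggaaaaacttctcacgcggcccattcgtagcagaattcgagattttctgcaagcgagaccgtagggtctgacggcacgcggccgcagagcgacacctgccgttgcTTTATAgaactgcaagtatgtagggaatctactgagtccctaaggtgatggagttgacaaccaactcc
Adgrl1: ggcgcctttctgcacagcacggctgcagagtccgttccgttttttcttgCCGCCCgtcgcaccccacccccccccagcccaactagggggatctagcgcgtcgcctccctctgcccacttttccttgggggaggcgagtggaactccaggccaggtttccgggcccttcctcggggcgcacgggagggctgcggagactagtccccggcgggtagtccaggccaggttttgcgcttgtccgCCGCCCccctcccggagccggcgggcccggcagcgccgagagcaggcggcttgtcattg

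The Gm13830 window had a GC content of 70.0% and 38 CpG dinucleotides, with 2 GC boxes and 2 CCAAT boxes, all read on the reverse strand. The Adgrl1 window had the same GC content with 28 CpGs. The Gm26802 window had a GC content of 45.7% and 14 CpGs, with 1 TATAAA match on the reverse strand. The peaks covered all 300 bases of each of these windows.

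The members at a lncRNA gene end alone are shown by Gm40237 (chr4:118546889-118547188, plus strand), Gm13421 (chr2:27540176-27540475, plus strand) and C920006O11Rik (chr9:78175664-78175963, plus strand). Snhg20 (chr11:117076533-117076832, plus strand), the host gene of a snoRNA, was added after its values were seen, as a CpG-rich start with no coding neighbour in reach. In Gm40237 the capitals mark a repeated stretch.
Gm40237: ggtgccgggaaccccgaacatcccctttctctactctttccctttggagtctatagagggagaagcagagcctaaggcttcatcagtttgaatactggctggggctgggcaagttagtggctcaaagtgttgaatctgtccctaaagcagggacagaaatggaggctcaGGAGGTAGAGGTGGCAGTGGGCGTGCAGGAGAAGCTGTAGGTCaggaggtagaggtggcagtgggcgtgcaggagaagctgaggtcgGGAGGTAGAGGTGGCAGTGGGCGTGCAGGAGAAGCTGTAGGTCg
Gm13421: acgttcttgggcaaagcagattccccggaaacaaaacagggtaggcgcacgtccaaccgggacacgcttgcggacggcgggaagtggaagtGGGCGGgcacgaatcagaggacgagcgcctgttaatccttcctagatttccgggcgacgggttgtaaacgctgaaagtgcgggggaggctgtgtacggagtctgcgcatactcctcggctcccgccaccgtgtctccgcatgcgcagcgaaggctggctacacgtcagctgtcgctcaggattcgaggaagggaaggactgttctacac
C920006O11Rik: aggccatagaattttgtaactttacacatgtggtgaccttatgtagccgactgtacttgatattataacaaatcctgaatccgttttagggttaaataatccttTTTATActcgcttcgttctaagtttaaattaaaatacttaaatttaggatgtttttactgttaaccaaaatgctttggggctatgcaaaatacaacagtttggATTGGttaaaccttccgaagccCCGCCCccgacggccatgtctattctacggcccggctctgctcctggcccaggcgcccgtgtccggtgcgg
Snhg20: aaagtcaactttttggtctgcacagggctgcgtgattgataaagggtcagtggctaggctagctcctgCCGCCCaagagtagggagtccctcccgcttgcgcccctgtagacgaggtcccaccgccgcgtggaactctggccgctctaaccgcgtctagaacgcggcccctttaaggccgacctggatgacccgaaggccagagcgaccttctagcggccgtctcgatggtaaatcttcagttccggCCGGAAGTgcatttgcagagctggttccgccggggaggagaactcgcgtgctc

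In the Gm40237 window a stretch of 43 bases occurred in 2 exact copies, starting at positions 170 and 257 of the window. A further copy that lacks 1 T lies between them and is not marked. A stretch of at least 30 bases repeated within one window, a measure chosen after this case was seen, was found in 2 of 85 lncRNA start windows under lncRNA-alone peaks (2.35%, interval 0.286 to 8.24%) and in none of 183 under shared peaks. It was found in 1.20% of all 9533 lncRNA start windows. The part of the repeat in the score of this peak was not tested. The Gm13421 window had 29 CpGs and 1 GC box, and the Snhg20 window 25 CpGs with 1 GC box and 1 ETS match. The C920006O11Rik window had 14 CpGs with a GC content of 43.0%. The window of Snhg17, a snoRNA host under a peak of higher score (137) than Snhg20, is not shown. It had 14 CpGs and a GC content of 47.0%.

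Scores of the members ran from 50 to 680, in a list whose highest score was 2409. The score came from the authors' peak calling, as deposited, and is used only to rank and describe peaks inside this list. Shared peaks had a median score of 72.6 (quartiles 58.1 and 105, range 50 to 447) and lncRNA-alone peaks one of 69.9 (quartiles 56.9 and 91.5, range 50.1 to 680). Peaks at coding gene ends that reached no lncRNA gene end had a median of 74.7 (n = 2155), and peaks at neither kind of end one of 65.7 (n = 2372). A score of 100 or more was held by 28.4% of shared peaks (88, interval 23.4 to 33.8%) and 19.1% of lncRNA-alone peaks (40, interval 14.0 to 25.1%). The corresponding share was 28.4% at coding ends only and 18.5% at neither. The quartile ranges of all these classes overlapped, and with 1 list the differences between medians were not tested.

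Widths also differed between the classes. The median width was 811.5 bp for shared peaks (quartiles 621.25 and 1117.75 bp), 785 bp at coding ends only, 699 bp for lncRNA-alone peaks (quartiles 559 and 923 bp) and 597 bp at neither. Peaks of 1000 bp or more made up 31.3% of shared peaks (97, interval 26.2 to 36.8%) and 19.6% of lncRNA-alone peaks (41, interval 14.5 to 25.7%), beside 25.4% at coding ends only and 10.1% at neither. The widest shared peak, of 2849 bp, lay at 4930526I15Rik and the widest lncRNA-alone peak, of 2986 bp, at Malat1. The next widest shared peaks lay at Gm38733 with the actin gene Actb (2695 bp) and at Gm6297, where the peak also reached Dnaja1, a chaperone gene, and Aptx, a DNA repair gene (2179 bp).

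**Figure D1:**
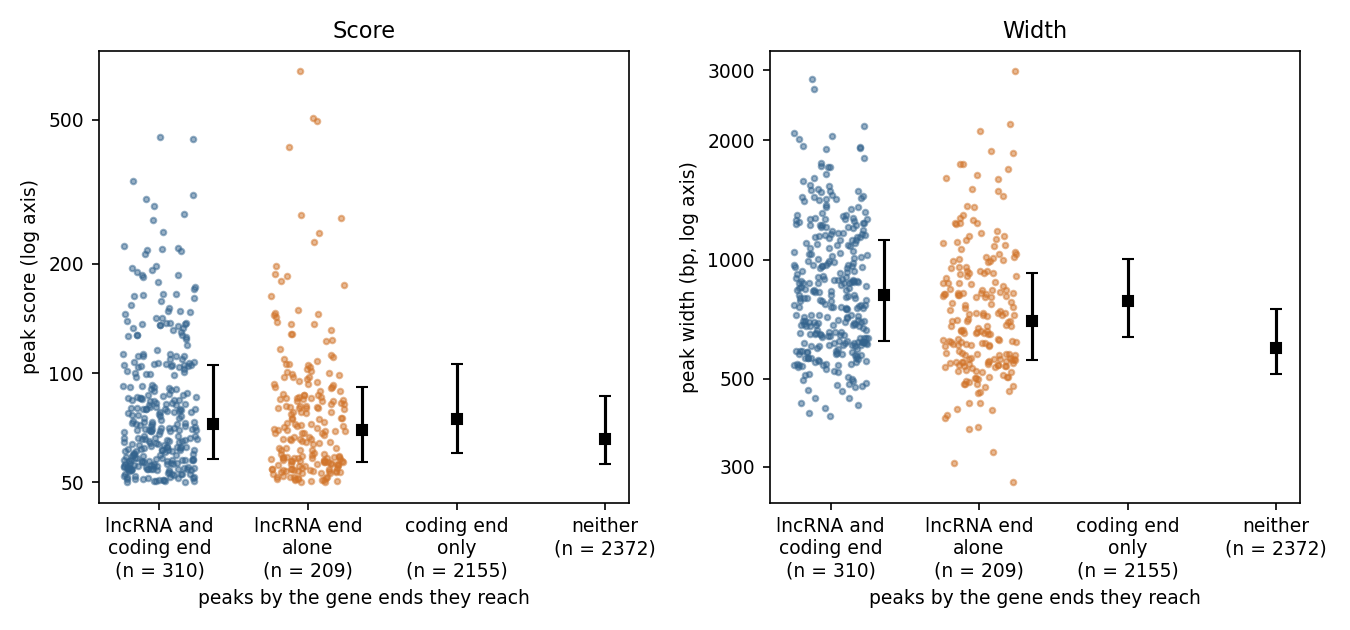
Score (left) and width in bp (right) of each peak at a lncRNA gene end, on log axes, for the 310 shared and 209 lncRNA-alone peaks (points), with the median (square) and quartiles (bars) of these and of peaks at coding ends only and at neither. Median scores lie between 65.7 and 74.7 in all 4 classes, while median widths run from 597 to 811.5 bp.

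Of 12727 annotated lncRNA genes, 525 had at least 1 peak at an end (4.13%, interval 3.79 to 4.49%), beside 13.9% of 21883 protein-coding genes (3032). Shared peaks reached 308 of these lncRNA genes and lncRNA-alone peaks 218, with 1 gene, Smc2os, reached by both kinds. Most members served a single lncRNA gene: 504 peaks reached 1 and 15 reached 2. The share fell with distance from coding genes. Among lncRNA genes with an end within 1 kb of a coding gene end, 14.7% carried a peak (299 of 2039, interval 13.2 to 16.3%), close to the share of coding genes. It was 4.32% at 1 to 5 kb (78 of 1805), 2.35% at 5 to 20 kb (63 of 2677), 1.41% at 20 to 100 kb (52 of 3692) and 1.31% beyond 100 kb (33 of 2514). For the nearest class this is partly fixed by the rule, since one window then overlaps the other. By length, the share was 6.25% for lncRNA genes up to 2 kb (87 of 1393), 4.66% at 2 to 10 kb, and 3.06% both at 10 to 50 kb and above 50 kb.

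**Figure D2:**
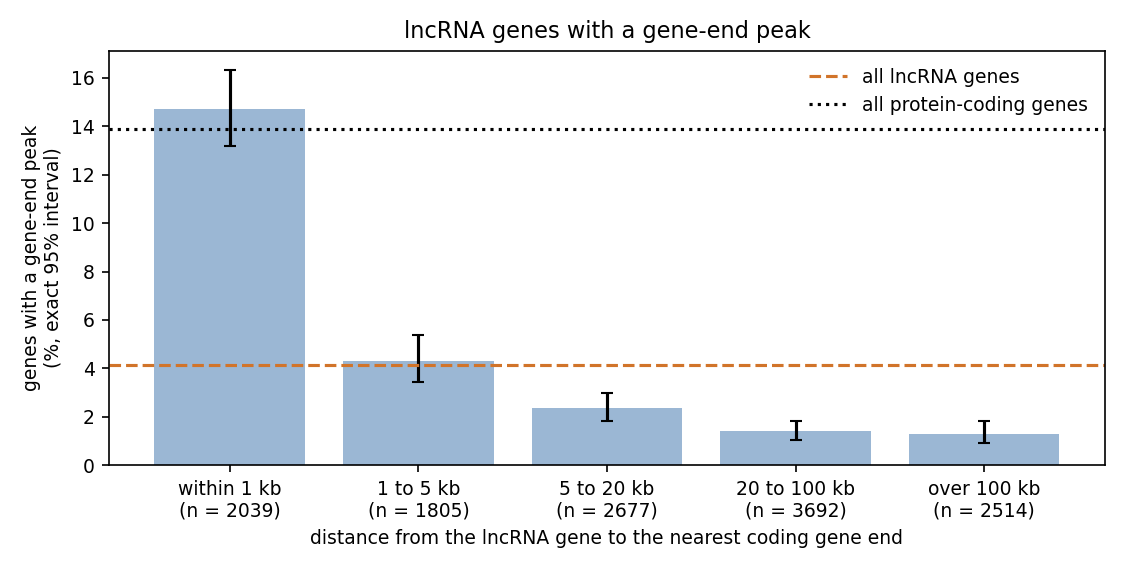
Percent of lncRNA genes with a gene-end peak (bars, with exact 95% intervals) by distance from the gene to the nearest end of a coding gene. The share is 14.7% within 1 kb and 1.31% beyond 100 kb, against 4.13% of all lncRNA genes (dashed line) and 13.9% of all coding genes (dotted line).

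Peaks sat at the start of lncRNA genes more often than at their end. The strand of a gene was taken from the start-window table, which covers 9533 lncRNA and 17491 coding genes. Of 8485 lncRNA genes longer than 2 kb with a strand, 282 carried a peak at the start (3.32%, interval 2.95 to 3.73%) and 69 at the end (0.813%, interval 0.633 to 1.03%), with 12 counted at both. Next to coding genes, within 1 kb, the shares were 12.8% at the start and 2.09% at the end (n = 1290). Farther from coding genes they were 1.63% (interval 1.35 to 1.95%) and 0.584% (interval 0.421 to 0.788%, n = 7195). Among lncRNA-alone peaks at genes over 2 kb, 101 of 140 lay at the start (72.1%, interval 63.9 to 79.4%) with a median score of 72.3, and 39 at the end with a median score of 64.0.

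Shared peaks lay mostly at pairs of starts on opposite strands. Both strands were known for the nearest lncRNA gene and nearest coding gene of 219 shared peaks. The coding gene end was its start in 213 of them (97.3%, interval 94.1 to 99.0%) and the lncRNA gene end was its start in 189 (86.3%, interval 81.0 to 90.6%). Peaks of the whole list also favoured coding starts. Of all 17491 coding genes with a strand, 13.4% (2348) carried a peak at the start and 1.65% (288) at the end. In 177 of the 219 shared peaks (80.8%, interval 75 to 85.8%) the peak lay at the starts of both genes, on opposite strands. The gene bodies did not overlap in 94 of these, so that the genes point away from each other. In the other 83 the bodies overlapped at the starts. Such starts lay 6 bp apart at Gm13855 and Slc35b4, for example, and 1269 bp apart at 9430083M05Rik and Rpl22. In 17 peaks the lncRNA gene ended at the coding start on the opposite strand, in 10 it ended there on the same strand, and in 9 both started on the same strand, as Hymai and Plagl1 did (score 51.3). Only 3 peaks lay at the ends of both genes, and 3 at a lncRNA start beside a coding end.

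These layouts were set against all pairs of a lncRNA gene end and a coding gene end within 1 kb of each other, 1479 pairs with both strands known, of which 14.5% (215) had a peak at both. Divergent pairs, with starts on opposite strands and separate bodies, had one in 16.8% (96 of 572, interval 13.8 to 20.1%). Pairs of starts on opposite strands with overlapping bodies had one in 19% (76 of 399, interval 15.3 to 23.3%). Pairs at which the lncRNA gene ended at a coding start, on either strand, had one in 13.4% (24 of 179, interval 8.78 to 19.3%). Pairs at the end of a coding gene had one in 3.47% (10 of 288, interval 1.68 to 6.29%), against 17.2% for all pairs at a coding start (205 of 1191, interval 15.1 to 19.5%). These 2 intervals did not overlap. Those of both kinds of opposite-strand start pairs and of lncRNA genes ending at a coding start overlapped each other. Among lncRNA starts at a coding end, 5 of 115 had one (4.35%, interval 1.43 to 9.85%). Over all 17491 coding genes with a strand, 13.4% had a peak at the start and 1.65% at the end. A lower share at coding ends than at coding starts is thus not particular to pairs with a lncRNA gene.

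**Figure D3:**
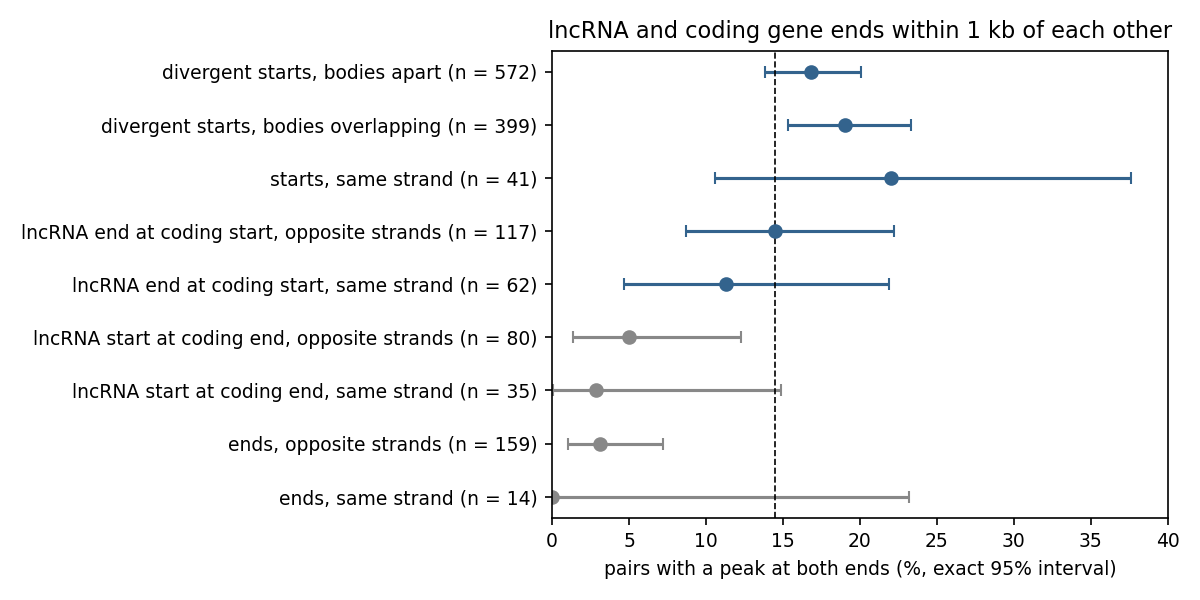
Percent of pairs of lncRNA and coding gene ends within 1 kb that carry a peak at both (points, exact 95% intervals), by layout, with pairs at a coding start in blue and at a coding end in grey, and the share of all pairs as a dashed line. The layouts at a coding start lie between 11.3 and 22.0%, and those at a coding end between 0 and 5.0%. Starts on opposite strands are labelled divergent, also where the bodies overlap at the starts.

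The gap between divergent starts with separate bodies made little difference to these shares, at 16.6% for gaps up to 100 bp (43 of 259), 17.1% for 101 to 250 bp (32 of 187), 17.6% for 251 to 500 bp (15 of 85) and 14.6% for 501 to 1000 bp (6 of 41). Their intervals all overlapped. At 72 of the 94 such members (76.6%, interval 66.7 to 84.7%) the peak covered both starts. Its midpoint lay between the starts in 28, on the coding gene's side in 29 and on the lncRNA gene's side in 37. The median midpoint was at -73.75 bp from the coding start and -66.25 bp from the lncRNA start, where negative means upstream. Over all 310 shared peaks the midpoint was nearer to the coding end in 185 (59.7%, interval 54.0 to 65.2%) and nearer to the lncRNA end in 121. The median distance over all 310 was 144 bp from the coding end and 244 bp from the lncRNA end.

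**Figure D4:**
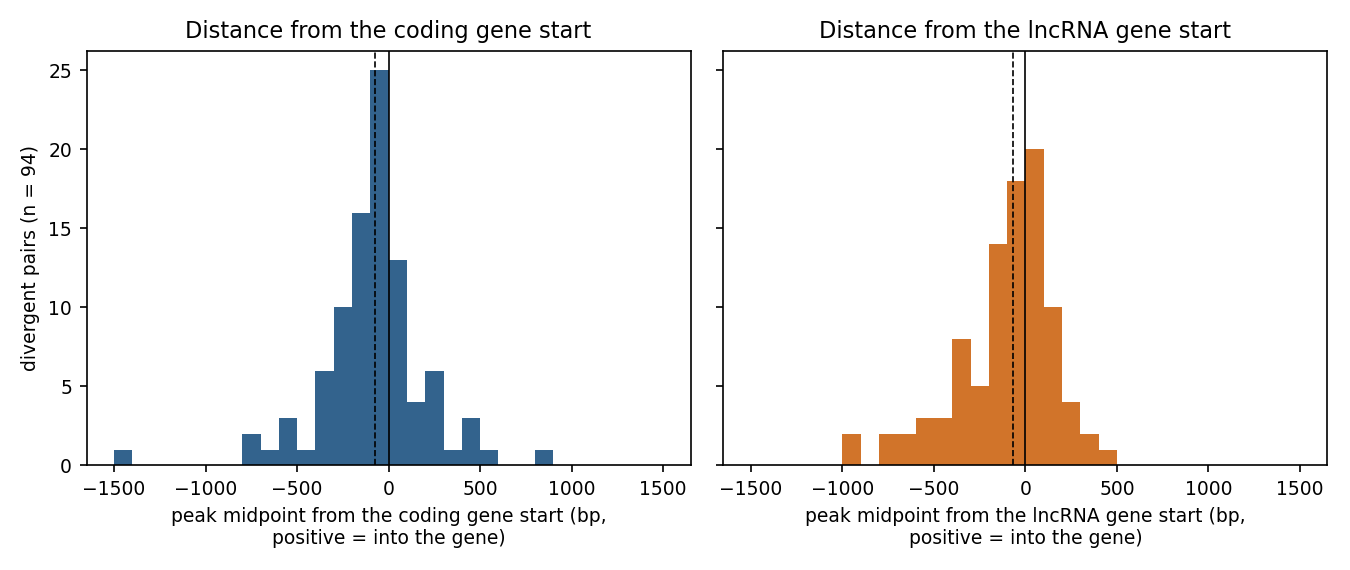
Number of divergent pairs with separate bodies (n = 94) by the distance in bp of the peak midpoint from the coding gene start (left) and from the lncRNA gene start (right), with positive values inside the gene. The dashed medians lie upstream of both starts, at -73.75 and -66.25 bp. A midpoint inside one gene is always upstream of the other start, and 28 midpoints lay between the starts.

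Coding starts with a lncRNA start opposite were compared with other coding starts. Of 17491 coding genes with a strand, 13.4% (2348) carried a peak at their start. With a lncRNA start on the opposite strand within 1 kb, and no coding start there, the share was 17.9% (175 of 980, interval 15.5 to 20.4%). With a coding start opposite and no lncRNA gene end near, it was 36.5% (643 of 1763, interval 34.2 to 38.8%), and with neither it was 10.2% (1470 of 14367, interval 9.74 to 10.7%). The intervals of these 3 groups did not overlap. They were formed after earlier results of this list were known, and genes that share a peak are counted each.

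Among the shared peaks with the highest scores, that at Gm26802 (chromosome 7, 19300630 to 19301759, score 447) lay at the start of the lncRNA gene. The AP-1 subunit gene Fosb was reached at its transcription end, with the midpoint 1502 bp from that end, and both genes lie on the minus strand. It was 1 of 3 members, among the 219 with both strands known, at a lncRNA start beside a coding end. The peak at Gm13830 (chromosome 5, 115299931 to 115301644, score 443) covered divergent starts 130 bp apart, with Dynll1, a dynein light chain gene, on the other side. A peak of score 302 lay at 9430083M05Rik, whose start lies inside the ribosomal protein gene Rpl22 on the opposite strand, 1269 bp from the Rpl22 start. The midpoint was 184 bp from the lncRNA start and 1452 bp from the Rpl22 start, so the lncRNA start was the nearer annotated gene end. Other starts inside Rpl22 were not considered.

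Other high scores were found at Gm26721 beside Adgrl1 (310), Gm9929 with Atf6, a sensor of unfolded proteins (288), and 4930539J05Rik, which starts inside the ubiquitin-conjugating enzyme gene Ube2d3 (275). They were followed by Gm34736 with Lemd2, a gene of the nuclear envelope (264), and Gm42114, which starts 648 bp inside the nucleoporin gene Nup54 (244), the midpoint being 96 bp from the Nup54 start. C030016D13Rik and Pum3 shared a peak of score 225 over starts 129 bp apart, and 6030442K20Rik and Rbbp5, a subunit of histone H3 lysine methyltransferase complexes, one of 221 over starts 284 bp apart. The distance to the start thus favoured the lncRNA gene at some of these loci and the coding gene at others. Members near the median score likewise reached lncRNA starts. Gm16861 overlaps Nudt16l1, and its peak also reached Mgrn1 (72.8). Its midpoint was 436 bp from the lncRNA start and 38 bp from the Nudt16l1 start. At Gm35344 beside the thioredoxin gene Txn1 (72.5) the midpoint was 550 bp from the lncRNA start and 518 bp from the Txn1 start. At Gm38872 beside the calcium channel gene Itpr1 (72.2) it was 39 bp from the lncRNA start and 126 bp from the Itpr1 gene end.

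The coding genes at shared peaks numbered 335, which is 11.0% of the 3032 coding genes with a gene-end peak (interval 9.95 to 12.2%). A single coding gene was reached by 284 shared peaks, 2 by 25 and 3 by 1. Ribosomal protein genes were among the partners in 4 of 53 cases (7.55%, interval 2.09 to 18.2%), namely Rpl22, Rps15 (55.6), Rps10 (54.4) and Rps13 (51.0). None of 36 mitochondrial ribosomal protein genes with a peak shared it with a lncRNA gene, and 1 of 39 histone genes did (H4c8, 80.4). Of 71 genes named Zfp and a number, 11 did (15.5%, interval 8.0 to 26.0%), led by Zfp335 (133) and Zfp37 (110). Of 37 genes named Usp, Ube2 or Rnf, 6 did (16.2%, interval 6.19 to 32.0%), among them Ube2d3, Ube2q1 (86.9) and the ubiquitin protease genes Usp12 (77.7) and Usp2 (57.4). Of 7 genes named Fos, Jun, Batf or Atf, 3 did: Fosb, Atf6 and Atf2 (105). The groups of splicing, RNA helicase, and Rab and Vps genes had 1 of 24 (Srsf5, 72.9), 1 of 19 (Ddx41, 217) and 3 of 27 (led by Rab5if, 137). The intervals of these groups all included 11.0% except that of the mitochondrial ribosomal protein genes, which reached up to 9.74%. These groups were chosen with earlier results known, so the counts are descriptions.

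The highest-scoring peaks at lncRNA gene ends alone often also reached genes of small structural RNAs. Of the 10 highest, 6 reached an end of a tRNA, snRNA or snoRNA gene, and of the 20 highest, 9 did. None of the 20 highest shared peaks did. Over all members this held for 28 of 209 lncRNA-alone peaks (13.4%, interval 9.09 to 18.8%) and 11 of 310 shared peaks (3.55%, interval 1.78 to 6.26%). In the lncRNA-alone class, 17 peaks reached tRNA genes, 7 snRNA genes and 6 snoRNA genes. The 28 had a median score of 92.2 and the other 181 one of 68.3. The corresponding share over all listed peaks is not given here. Reaching such genes is therefore not shown to be particular to lncRNA-alone peaks.

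Gm40237 held the highest score of all members, 680, in a peak that covered the whole gene of 1118 bp (chromosome 4, peak 118546889 to 118549001). No tRNA, snRNA or snoRNA gene end was in reach there. The peak of score 505 at Gm13421 (chromosome 2, 27539452 to 27540576) also reached the snRNA gene Gm25541, and that of 496 at the end of LOC115487798 (chromosome 11, 87442522 to 87444114) reached Rnu3b1, a U3 gene that RefSeq files under snRNA. C920006O11Rik carried a peak of score 272 with its midpoint 4 bp from the lncRNA start, which lies beside Rn7sk, the gene of the 7SK RNA that holds back the elongation factor P-TEFb. The peaks at D230017M19Rik (268), at Gm35239 with 1700031P21Rik (243) and at Gm39827 (188) reached snRNA or tRNA genes as well. Those at Gm17801 (229) and B930059L03Rik (198) did not. The peak of 419 near Gm12223 lay 1455 bp by its midpoint from the start of the gene and met only the edge of its window. What such neighbouring genes contribute to the scores was not tested.

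Over all 209 lncRNA-alone peaks the median distance from the nearest coding gene end was 17.1 kb. Of them, 132 lay farther than 10 kb and 31 farther than 100 kb. In all, 52 had their midpoint inside a coding gene (24.9%, interval 19.2 to 31.3%), with a median score of 76.5, and 157 lay between coding genes, with a median of 69.1. The peak covered the lncRNA gene end in 112 (53.6%, interval 46.6 to 60.5%), beside 214 of 310 shared peaks (69.0%, interval 63.6 to 74.1%). Members near the median score included Gm32749 (69.9, a peak of only 274 bp), Mirg (69.7) and Gm21123 (70.2). At the limit of the window, peaks at LOC115488500, Tvp23bos and Gm32420 were the last counted, with their edge 996, 987 and 974 bp from the gene end. The nearest left out were at Platr30 (1004 bp), 9330136K24Rik and 4930573C15Rik (1015 bp each), with scores of 165, 55.2 and 56.6.

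Host genes of snoRNAs carried gene-end peaks in 9 of 20 cases (45.0%, interval 23.1 to 68.5%), beside 4.13% of all lncRNA genes. Of these genes, 11 of 20 lie within 1 kb of a coding gene end. Peaks at 7 of the 9 were lncRNA-alone peaks. The highest was at Snhg17 (137, midpoint 14 bp from its start), followed by Snhg7 (97.5), Snhg20 (93.4) and Zfas1 (84.4), which shared its peak with Znfx1. Snhg9 (71.2), Snhg16 (58.7), Snhg15 (58.3), Dancr (53.8) and Gas5 (50.4, shared with Zbtb37) carried peaks of lower score. At 7 of the 9, other than Snhg17 and Snhg20, the peak also reached an end of a gene that RefSeq classes as snoRNA, and its part in the score was not tested. Snhg1 and Snhg10 were among the hosts without a peak.

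The smaller named groups had few members, and each of their intervals included the 4.13% of all lncRNA genes. Of 8 imprinted lncRNA genes 1 carried a peak (12.5%, interval 0.316 to 52.7%), Mirg (69.7), beyond its transcription end with the midpoint 542 bp away. H19, Meg3, Kcnq1ot1, Rian, Airn, Peg13 and Snhg14 had none, although 2 peaks lay inside Airn. None of the 3 X inactivation genes Xist, Jpx and Ftx carried one (interval 0 to 70.8%), nor any of the 8 miRNA host genes, such as Mir17hg and Mir155hg (interval 0 to 36.9%). Peaks away from the gene ends lay inside 3 of these 8, Mir100hg, Mir670hg and Mir99ahg. Among 4 genes of nuclear RNAs 1 carried a peak (25%, interval 0.631 to 80.6%). This was Malat1, with a peak of score 80.9 (chromosome 19, 5792894 to 5795879), which began inside the gene near its transcription end and extended beyond it, with the midpoint 1304 bp past that end and also reached Mascrna, the small RNA cut from the Malat1 transcript. Neat1, Firre and Miat carried none.

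Of 11 lncRNA genes listed here as blood lncRNAs, 1 had a peak (9.09%, interval 0.230 to 41.3%), which was Gas5. Lncpint, Dleu2, Morrbid, Bloodlinc, Hotairm1 and Hottip were among those without. The list also held Lncenc1, without a peak, whose link to blood cells was not checked. Of 9 lncRNA genes linked to p53 and growth control, 2 had one (22.2%, interval 2.81 to 60%), Gas5 among them, and Tug1, Pvt1, Norad, Meg3 and Trp53cor1 did not. A lncRNA gene with no listed peak is not shown to lack binding, because the list holds no peak with a score below 50.

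Genes named as opposite-strand transcripts carried peaks in 22 of 212 cases (10.4%, interval 6.62 to 15.3%), and 38.7% of them lie within 1 kb of a coding gene end. They were led by Man2c1os (162), Zfp335os (133), Mccc1os (112) and Tvp23bos (94.8), while Abhd11os and Acss2os had none. The peak at Zfp335os lay 85 bp by its midpoint from the lncRNA start and 1237 bp from the start of Zfp335. Smc2os carried a shared peak at its start (84.3) and a lncRNA-alone peak at its end (57.3). Of 1788 genes with a clone name ending in Rik, 6.21% carried a peak (111, interval 5.13 to 7.43%), and of 10127 predicted genes named Gm and a number 3.56% did (361, interval 3.21 to 3.94%). Of the Rik genes 24.3% and of the Gm genes 13.8% lie within 1 kb of a coding gene end. In all, 9 lncRNA genes had 2 member peaks and none had more. Different peaks lay at both ends of 7, among them 1700122E12Rik (107 and 66.4), Gm15559 (105 and 83.9) and Gm32420 (97.6 and 52.9).

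Members were found on every assembled chromosome except Y. The share of lncRNA genes with a peak ran from 2.30% on chromosome 13 to 6.11% on chromosome 5 among the autosomes, and was 1.73% on X (5 of 289, interval 0.564 to 3.99%). Chromosomes 12 (10 against 4) and 16 (10 against 9) held more lncRNA-alone than shared members, and chromosome 13 and X held as many of each.

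Start windows overlapped by member peaks were often rich in CpG. Members whose peak missed the start window do not enter here. Shared peaks reached 308 lncRNA genes but overlapped 183 lncRNA start windows, and lncRNA-alone peaks reached 218 but overlapped 85. A start window was called CpG-rich when its GC content was above 50% and its CpG count above 0.6 times the number expected from its C and G content. This held for 84.7% of 183 lncRNA windows under shared peaks (interval 78.7 to 89.6%) and 50.6% of 85 under lncRNA-alone peaks (interval 39.5 to 61.6%). Without a peak it held for 46.7% of lncRNA windows of genes within 1 kb of a coding end (n = 1374) and 4.65% of those farther away (n = 7890). Coding windows under shared peaks (81.1%, n = 227) and under peaks at no lncRNA gene end (79.7%, n = 2027) were alike within their intervals, and 40.4% of coding windows without a peak were CpG-rich. The median GC content was 64.0% under shared and 55.7% under lncRNA-alone peaks, against 48.7% in all lncRNA windows. The windows of a divergent pair partly hold the same bases, so lncRNA and coding windows under shared peaks are not independent.

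**Figure D5:**
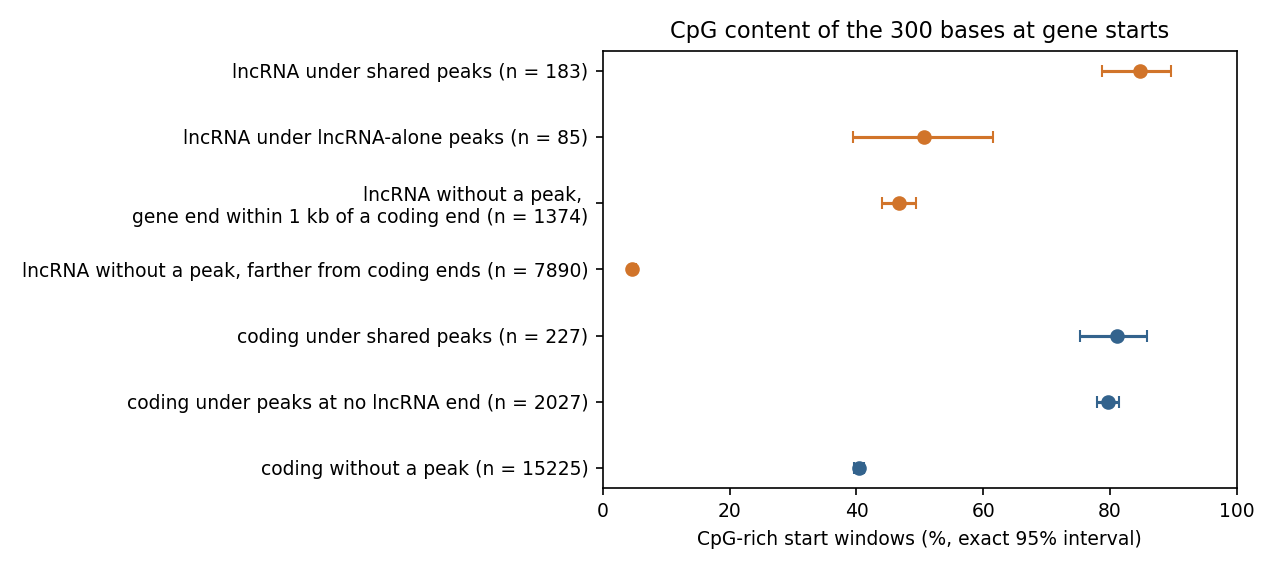
Percent of start windows that are CpG-rich (points, exact 95% intervals), for lncRNA genes (orange) and coding genes (blue) by the peak over the window. Windows under shared peaks lie at 84.7% for lncRNA and 81.1% for coding genes, and lncRNA windows without a peak and far from coding genes at 4.65%.

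Within each CpG class the neighbourhood still went with the share of windows under a peak. Neighbourhood was taken for the whole gene, as either of its ends lying within 1 kb of a coding end. Among CpG-rich lncRNA windows of such genes, 19.5% lay under a peak (156 of 798, interval 16.9 to 22.5%). Where neither end lay so near, 10.3% did (42 of 409, interval 7.5 to 13.6%). Among the others the shares were 3.30% (25 of 757) and 0.608% (46 of 7569). For coding genes they were 22.8% of CpG-rich and 4.77% of other windows. A CpG-rich start of a lncRNA gene with neither end near a coding end was thus more often under a peak than a start that was not CpG-rich in a gene with an end near one. The intervals of 10.3% and 3.30% were apart. The end near the coding gene need not be the start, so CpG content and a coding neighbour of the start itself are not ranked by this.

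Short motifs were counted in the same windows on both strands, without regard to overlap between motifs. The GC box GGGCGG, to which Sp and Klf factors bind, was in 65.0% of lncRNA windows under shared peaks and 52.9% under lncRNA-alone peaks, against 16.8% of all lncRNA windows and 35.9% of all windows. The ETS motif CCGGAAGT was in 7.65% and 4.71%, against 1.64% of all lncRNA and 3.99% of all windows. The TATA box TATAAA was in 3.83% under shared and 12.9% under lncRNA-alone peaks, beside 15.7% of all lncRNA and 14.2% of all windows. CCAAT was in 31.7% and 25.9%, beside 38.0% of all windows. A CGCG palindrome known to bind BANP was in 6 of 183 windows under shared peaks (3.28%) and none of 85 under lncRNA-alone peaks, and in 0.503% of all windows. In coding windows under peaks at no lncRNA gene end the GC box was in 62.7% and the ETS motif in 13.8%. The TATA box was there in 7.35%, CCAAT in 39.5% and the palindrome in 4.09%. The GC box, the ETS motif and the palindrome were thus not particular to starts at lncRNA gene ends.

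The cAMP response element TGACGTCA was in 2.73% and 3.53% of the windows under shared and lncRNA-alone peaks, beside 1.85% of all windows, and the AP-1 site TGACTCA in 4.37% and 7.06%, beside 5.17%. The motifs of NRF1 and YY1 were in 1.09% and 2.73% of windows under shared peaks and in 2.35% and 1.18% under lncRNA-alone peaks, beside 0.981% and 0.699% of all windows. In coding windows under peaks at no lncRNA gene end the cAMP response element was in 3.95%. The NRF1 and YY1 motifs were there in 2.47% and 2.61%. ACTACAA, a part of the ZNF143 motif, was in 3.83% and 3.53%, beside 3.44%. The motifs that were more frequent under members than in all windows included GC-rich ones, and the GC content of the windows was not matched. A match describes the letters only.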

How the data were processed

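The data are 1 list of peaks for the anti-Usp16 library. Per the file headers, the authors called them with MACS in Galaxy. Bowtie, Picard and build mm10 appear in the submitters' processing notes. MACS settings, and whether IgG served as its control, were not given in the sources used here. Each peak carries a score, as deposited by the authors, of 50 or more, and read depth is unknown. Peaks off the assembled chromosomes were left out.

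Starts were made 1-based and gene ends taken from RefSeq's gene table for GRCm38.p6; mm10 is the browser name of GRCm38. Strand and start windows came from the RefSeq start-window table, with 1 window per gene, the one nearest the annotated start. Analyses used Python 3.11.15, pandas 2.3.3 and scipy 1.17.1, and overlap code was tested on simulated data. Shares have exact Clopper-Pearson 95% intervals, and no significance test was run. Genes named are the 10 highest-scoring members of each kind, up to 4 with and 2 without a peak in each of 11 lists, the widest, those near the median score, at the window limit and with several peaks; further examples were chosen after their values were seen. The 22 members on chromosome 18 were counted but are not named. Members and lists were chosen with earlier results of these data known. The CpG classes by neighbourhood, the classes of coding starts, the shares at lncRNA starts and ends and the repeat measure were added after seeing the data.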

Additional observations from a re-analysis of the deposited data

How the results depend on the processing

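For 16 results up to 9 alternatives each were run, and none changed which group was higher. No paired analysis was possible because the list comes from 1 library and no test was made. The comparisons of coding starts, and of starts with ends of lncRNA genes, were added after seeing the data.

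With only the peaks at or above the median score, 271 members were left, 167 shared and 104 lncRNA-alone, with median scores of 104 and 91.6. The share of lncRNA genes with a peak was then 2.16%, or 8.04% near and 1.04% far from coding ends. Of coding starts 9.90% opposite a lncRNA start, 23.0% opposite a coding start and 5.62% with neither carried a peak, and of lncRNA genes over 2 kb 1.85% at the start and 0.342% at the end. A window of 5 kb gave 861 members, 520 shared and 341 lncRNA-alone. It gave 7.0% of lncRNA genes, 18.2% near and 4.87% far from coding ends. Coding starts were at 39.0% opposite a coding start and 13.0% with neither, and lncRNA genes at 5.11% at the start and 3.54% at the end. At this width the windows of both ends overlap in lncRNA genes of 2 to 10 kb, so 1 peak can count at both. This setting therefore cannot separate start from end in such genes. A window of 500 bp gave 3.55% of lncRNA genes, 1.66% far from coding ends, 9.68% of coding starts with neither neighbour, and 2.95% at the start and 0.483% at the end of lncRNA genes.

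With at least 50% of the peak in the window these were 3.74% of lncRNA genes, 1.80% far from coding ends, 9.73% of coding starts with neither neighbour and 0.577% at the end. With the midpoint in the window they were 3.73%, 1.79%, 9.73% and 0.566%. Without chromosomes X and Y, coding starts with neither neighbour were at 10.8%. Merging peaks and leaving out peaks that reach small RNA genes of the 3 kinds moved no result beyond its interval or count limit. Leaving out short lncRNA genes did not either for 14 results, and was not run for the shares at starts and ends, which hold longer genes only. Read depth is unknown, so it is not known which weaker sites fell below the lowest score.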
